A study of Mus musculus with 12 samples.

Results

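The CCN family and the YAP axis were described in lymph node stromal cells (SCs) through 8 genes: the secreted CCN proteins Ctgf, Cyr61, Nov, Wisp1 and Wisp2, the transcriptional coactivators Yap1 and Wwtr1, and the YAP-binding adaptor Amotl2. They were picked by gene name as members of this family and pathway, and all 8 were found among the 10253 genes of the expression table. Earlier results of these data were known when they were picked, so counts of the 8 genes beside all tested genes are descriptive. CD45-CD24-CD31-gp38+ SCs, a sort that leaves out hematopoietic and endothelial cells and keeps cells carrying podoplanin, were taken from the mesenteric lymph nodes (mLN), which drain the gut, or from the peripheral lymph nodes (pLN), which drain the skin. The 4 groups, with 3 RNA-seq libraries each, were mLN of germ-free (GF) mice, mLN of specific pathogen-free (SPF) mice, pLN of GF mice and pLN of SPF mice, all BALB/c. The GF animals came from a separate BALB/c colony kept in isolators. For mice bred under SPF conditions the methods list a BALB/c strain named CD90.1, an allele of Thy1, without naming the strain behind each library. GF mice were 6 to 10 weeks old and SPF mice 7 to 12 weeks old. Housing, colony and this difference in age range cannot be told apart in any GF against SPF comparison. Nothing in the labels says that the 3 libraries of a group came from separate animals, so the p-values measure the spread between these libraries only.

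CCN proteins are matricellular: they are secreted into the matrix, where they bind integrins, heparan sulfate proteoglycans and growth factors, and change how cells adhere and respond to those factors. YAP, encoded by Yap1, and TAZ, encoded by Wwtr1, carry no DNA-binding domain of their own and act in the nucleus on TEAD transcription factors, while the kinases of the Hippo pathway hold them in the cytoplasm. Ctgf and Cyr61 are the most widely used readouts of YAP and TAZ activity, and Amotl2 is both a target gene and an inhibitory binding partner of YAP. In lymph nodes, fibroblastic SCs build a matrix network that stretches as the node swells, and stretch is a classical stimulus of YAP.

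In GRCm38, Cyr61 (now Ccn1) lies on chromosome 3 from 145646971 to 145649985 and Ctgf (Ccn2) on chromosome 10 from 24595442 to 24598683. Nov (Ccn3) and Wisp1 (Ccn4) lie on chromosome 15, from 54745910 to 54753762 and from 66891369 to 66923201. Wisp2 (Ccn5) lies on chromosome 2 from 163820752 to 163833146, Wwtr1 on chromosome 3 from 57455644 to 57575910, Yap1 on chromosome 9 from 7931999 to 8004638 and Amotl2 on chromosome 9 from 102717091 to 102733418. The letters that TEAD factors read, CATTCC or its reverse complement GGAATG, were looked for in the 250 bases before the transcription start (RefSeq, GRCm38.p6) for Cyr61, Yap1, Wwtr1 and Amotl2, of which Wwtr1 has a pair of overlapping windows. Each of these 4 genes held them at 1 position, the pair of Wwtr1 windows sharing the same one, and 14.4% of all genes held them in at least 1 window (12.6% of the 32851 windows). The promoters of Cyr61, the most abundant target gene, and of Wwtr1, one of the coactivators, are shown, with the core in capitals, to set a target gene beside a regulator. They run 5′ to 3′ on the minus strand, at chr3:145649986-145650235 for Cyr61 and chr3:57575911-57576160 for Wwtr1.
Cyr61: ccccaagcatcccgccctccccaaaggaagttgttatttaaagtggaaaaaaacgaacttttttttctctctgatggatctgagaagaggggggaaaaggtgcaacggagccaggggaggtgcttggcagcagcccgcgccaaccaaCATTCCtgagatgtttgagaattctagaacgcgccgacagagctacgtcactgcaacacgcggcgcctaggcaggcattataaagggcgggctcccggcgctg
Wwtr1: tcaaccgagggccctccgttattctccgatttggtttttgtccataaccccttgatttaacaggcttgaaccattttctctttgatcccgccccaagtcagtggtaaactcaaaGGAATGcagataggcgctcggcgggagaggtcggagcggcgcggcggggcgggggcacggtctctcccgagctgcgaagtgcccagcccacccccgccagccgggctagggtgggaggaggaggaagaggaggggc
The core began at base -103 from the start in Cyr61 and at -136 in the Wwtr1 window shown. It began at -141 in Yap1, whose window, chr9:8004597-8004846, runs into the gene span given above. In Amotl2 it began at -65 in the window chr9:102717554-102717803. That window lies inside the gene span given above, before a start other than its outer end. It overlapped 136 bases of exon in the GENCODE M21 annotation. The CArG box, the site of serum response factor (SRF), was in none of these windows and in 1.47% of all windows. These matches describe letters and show neither binding nor regulation.

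Expression is given as RPKM (reads per kilobase of exon, set against sequencing depth), which allows levels of different genes to be compared. Among the CCN genes, Cyr61 took most of the signal in every library. Its share of the summed RPKM of the 5 CCN genes was 68.2% to 72.9% in mLN of GF mice, 68.7% to 73.8% in mLN of SPF mice, 87.8% to 89.1% in pLN of GF mice and 82.6% to 89.1% in pLN of SPF mice. The gap between the nodes was filled by Nov, with 18.2% to 22.0% of the sum in GF mLN and 22.0% to 25.6% in SPF mLN, against 0.882% to 1.89% in GF pLN and 1.17% to 1.76% in SPF pLN. The sum itself was 721 ± 71.3 RPKM in GF mLN, 576 ± 61.9 in SPF mLN, 662 ± 3.0 in GF pLN and 745 ± 39.4 in SPF pLN (SD, n = 3 each).

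**Figure D1:**
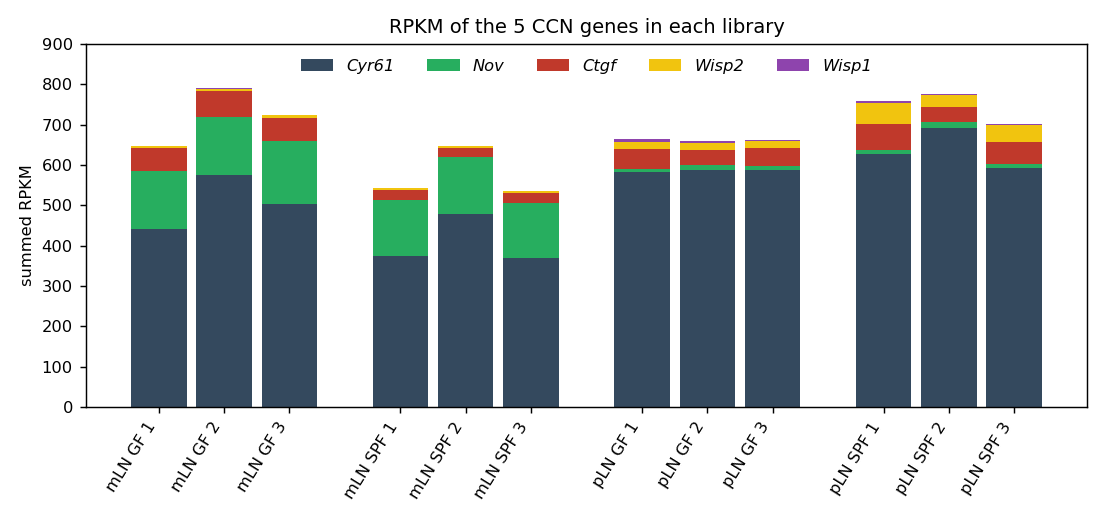
Summed RPKM of the 5 CCN genes (y axis) in each of the 12 libraries (x axis), 1 bar per library, stacked by gene. Cyr61 fills at least 68.2% of every bar, and the Nov segment is visible mainly in the mLN bars, where it holds 18.2% to 25.6%.

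Differences below are log2 differences on the log2(RPKM + 1) scale, which understates changes of genes near 1 RPKM, with the limma standard error (SE). A gene was called at a Benjamini-Hochberg adjusted p below 0.05 over all 9764 tested genes together with at least a 2-fold change. Sequencing depth, recovered from the steps in the RPKM values, was 4.50 to 13.4 M reads per library. The libraries are bulk RNA of mixed SC subsets, in which fewer cells of a type and less RNA per cell cannot be told apart. Podoplanin (Pdpn) stood at 53.9 to 80.5 RPKM in all libraries, as the sort implies. The endothelial genes Cdh5 and Prox1 were at no more than 0.307 and 0.204 RPKM. Tek and Plvap, also listed as blood endothelial, were not near 0 and went opposite ways between nodes. Tek averaged 61.6 RPKM in GF mLN, 76.5 in SPF mLN, 16.3 in GF pLN and 22.0 in SPF pLN. Plvap averaged 21.8 RPKM in GF mLN, 13.0 in SPF mLN, 159 in GF pLN and 130 in SPF pLN. Other SC subsets did move with location: summed RPKM of 10 CD34+ SC markers was 4852 to 6053 in mLN and 1006 to 2586 in pLN libraries, and that of 9 markers of T zone reticular cells was 516 to 975 in GF mLN, 404 to 656 in SPF mLN, 7373 to 9563 in GF pLN and 5236 to 7121 in SPF pLN. Summed RPKM of 9 perivascular markers was 40.2 to 114 in GF mLN, 30.5 to 56.7 in SPF mLN, 456 to 616 in GF pLN and 461 to 492 in SPF pLN, and 7 of the 9 were called lower in mLN in both housings. Ccl21a, whose value is uncertain for a reason given below, is in the T zone sum. It averaged 489 RPKM in GF mLN, 161 in SPF mLN, 6392 in GF pLN and 3982 in SPF pLN. The list called T zone here also holds Inmt, Cxcl13 and Madcam1, which the paper uses to mark other subsets. The part of these subsets in the location differences of the 8 genes was not tested.

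Location was compared first, mLN against pLN SCs, within each housing. In SPF mice 1 of the 8 genes was called higher in mLN (background over all tested genes 3.99%) and 3 were called lower (6.41%). In GF mice 1 was called higher (4.57%) and 2 lower (6.87%). Libraries of the 2 nodes did not overlap for 6 of the 8 genes in SPF mice, against 43.5% of all tested genes, and for 6 of 8 in GF mice, against 50.2%. The median difference of the 8 genes was -0.52 in SPF and -0.10 in GF mice, beside 0.09 and 0.00044 over all tested genes. Nov was the gene called higher in both housings, Wisp1 and Wisp2 were called lower in both, and Ctgf was called lower in SPF mice.

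**Figure D2:**
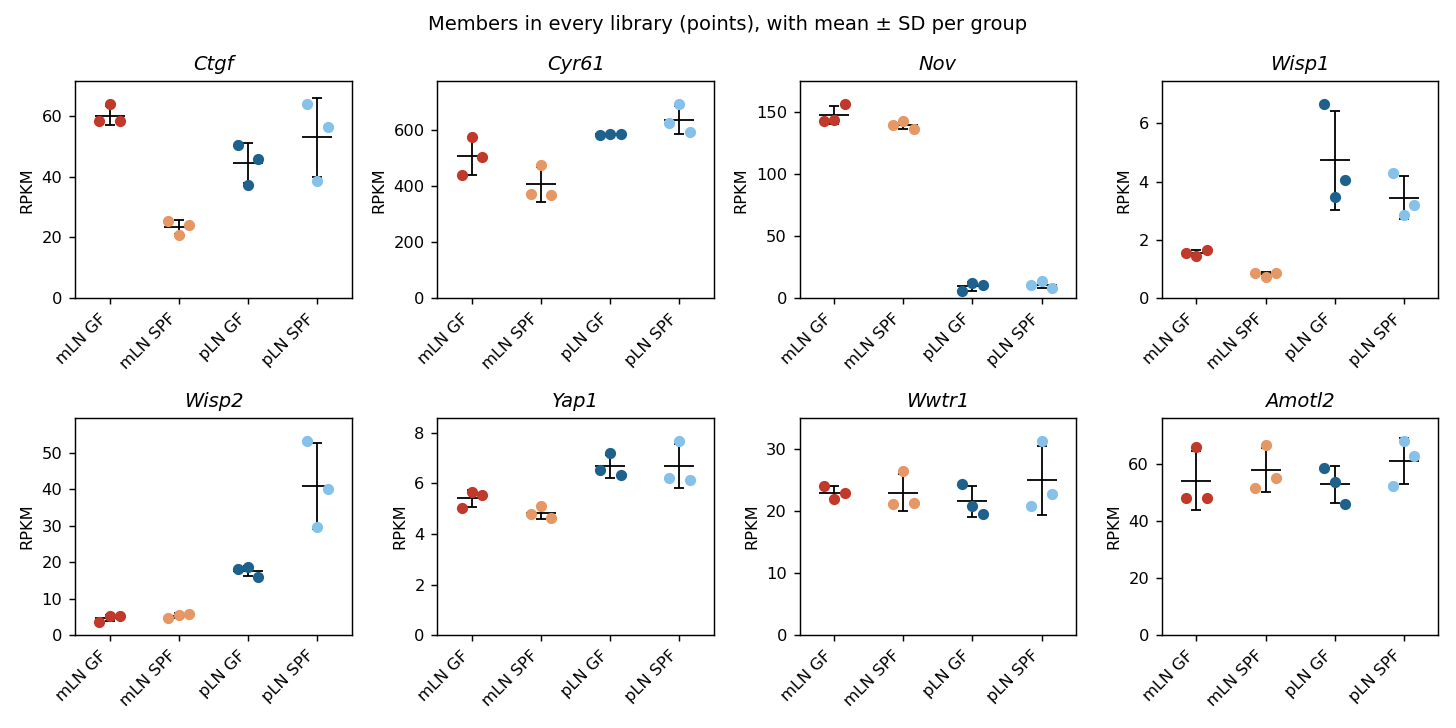
RPKM (y axis, from 0) of each of the 8 genes in the 12 libraries, 1 point per library, with the mean and SD of each group of 3 in black. Nov stands at 136 to 156 RPKM in mLN and below 14 in pLN, and Ctgf is lowest in the 3 SPF mLN libraries, at 20.9 to 25.5 RPKM.

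Nov (Ccn3), a CCN protein best known for restraining proliferation and for roles in muscle and blood progenitors, carried the largest location difference of the 8 genes. In SPF mice it had 139, 142 and 136 RPKM in mLN libraries, against 11.0, 13.7 and 8.18 RPKM in pLN libraries. Among GF mice the mLN libraries had 143, 144 and 156 RPKM, against 5.86, 12.5 and 10.8 RPKM in pLN. The ranges of the nodes were far apart in both housings, while the housings overlapped within pLN and lay next to each other within mLN. The difference was 3.58 ± 0.21 in SPF mice (limma adjusted p = 2.72e-09) and 3.85 ± 0.21 in GF mice (limma adjusted p = 1.72e-09). The housing difference was not called in either node, and GF minus SPF was 0.08 with a 95% interval from -0.36 to 0.52 in mLN and -0.19 from -0.63 to 0.25 in pLN.

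Wisp2 (Ccn5), a CCN protein that lacks the carboxy-terminal domain of the others, was lower in mLN. In SPF mice it had 4.65, 5.51 and 5.94 RPKM in mLN libraries, against 53.3, 29.6 and 40.2 RPKM in pLN libraries. Libraries of GF mice had 3.75, 5.15 and 5.22 RPKM in mLN, against 18.2, 18.6 and 15.9 RPKM in pLN. Each mLN library was below each pLN library. The difference was -2.69 ± 0.18 in SPF mice (limma adjusted p = 9.49e-09) and -1.71 ± 0.18 in GF mice (limma adjusted p = 1.31e-06).

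Wisp1 (Ccn4), named as a WNT-induced gene, was the least abundant of the 5 CCN genes in mLN. In SPF mice it had 0.873, 0.727 and 0.878 RPKM in mLN libraries, from 36 to 53 recovered reads each, against 4.29, 2.88 and 3.19 RPKM in pLN libraries. The GF libraries had 1.56, 1.44 and 1.67 RPKM in mLN, against 6.65, 3.48 and 4.07 RPKM in pLN. The nodes did not overlap in either housing. The difference was -1.27 ± 0.17 in SPF mice (limma adjusted p = 2.13e-05) and -1.12 ± 0.17 in GF mice (limma adjusted p = 6.78e-05). Its GF value fell under the 2-fold limit, at -0.90, without GF pLN replicate 1, the library with 6.65 RPKM, and it grew to -1.92 in SPF mice with a pseudocount of 0.1 RPKM in place of 1.

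Ctgf (Ccn2), a profibrotic CCN protein induced by TGF-β as well as by YAP, differed between nodes in SPF mice. It had 25.5, 20.9 and 24.0 RPKM in SPF mLN libraries, against 63.7, 38.5 and 56.4 RPKM in SPF pLN libraries. In GF mice the order was the other way, with 58.2, 63.7 and 58.1 RPKM in mLN, against 50.4, 37.2 and 45.7 RPKM in pLN. The nodes did not overlap in either housing. The difference was -1.11 ± 0.17 in SPF mice (limma adjusted p = 6.44e-05), and 0.43 ± 0.17 in GF mice, which was not called (limma adjusted p = 0.0531). The SPF value was under the 2-fold limit, at -0.96, without SPF pLN replicate 1, the library with 63.7 RPKM.

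Cyr61 (Ccn1), which promotes adhesion and angiogenesis and is induced within minutes by growth factors, was far more abundant per length than the other CCN genes. It had 374, 477 and 369 RPKM in SPF mLN libraries, against 626, 692 and 593 RPKM in SPF pLN libraries. GF mLN libraries had 441, 576 and 503 RPKM, against 583, 587 and 586 RPKM in GF pLN libraries, so that the highest mLN library lay just under the lowest pLN library. The difference was -0.65 ± 0.13 in SPF mice (limma adjusted p = 0.000923), which passed the p threshold without reaching 2-fold, and -0.22 ± 0.13 in GF mice (limma adjusted p = 0.223). In SPF mice both Cyr61 and Ctgf were lower in mLN at a limma adjusted p below 0.05. In GF mice the difference was -0.22 for Cyr61 and 0.43 for Ctgf, and neither passed. A regulator common to both was not tested.

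The coactivators differed by less than 2-fold between nodes. Yap1 had 4.79, 5.11 and 4.62 RPKM in SPF mLN libraries, against 6.19, 7.67 and 6.13 RPKM in SPF pLN libraries, without overlap. In GF mice it had 5.02, 5.67 and 5.52 RPKM in mLN, against 6.53, 7.18 and 6.31 RPKM in pLN. The difference was -0.39 ± 0.11 in SPF mice (limma adjusted p = 0.0132), under 2-fold, and -0.26 ± 0.11 in GF mice (limma adjusted p = 0.0846). Wwtr1 had 21.2, 26.4 and 21.3 RPKM in SPF mLN, against 20.8, 31.2 and 22.8 RPKM in SPF pLN, and the nodes overlapped. In GF mice it had 24.0, 22.0 and 22.8 RPKM in mLN, against 24.3, 20.8 and 19.5 RPKM in pLN. Its location difference was -0.10 with a 95% interval from -0.42 to 0.21 in SPF mice and 0.09 from -0.22 to 0.41 in GF mice. In every library Wwtr1 was the more abundant of the pair, by 3.87 to 4.78 times in GF mLN, 4.43 to 5.18 times in SPF mLN, 2.90 to 3.72 times in GF pLN and 3.36 to 4.08 times in SPF pLN.

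Amotl2, which holds YAP at cell junctions, likewise showed no location difference that passed the test. It had 51.7, 66.6 and 55.2 RPKM in SPF mLN libraries, against 52.3, 68.0 and 62.7 RPKM in SPF pLN libraries. Without a microbiota it had 48.1, 66.0 and 48.2 RPKM in mLN, against 58.7, 53.8 and 45.9 RPKM in pLN. The nodes overlapped in both housings, with differences of -0.07 (95% interval -0.40 to 0.25) in SPF mice and 0.03 (-0.30 to 0.35) in GF mice. These intervals leave out a 2-fold change in either direction. Replicate 2 was the highest library in 3 of the 4 groups.

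**Figure D3:**
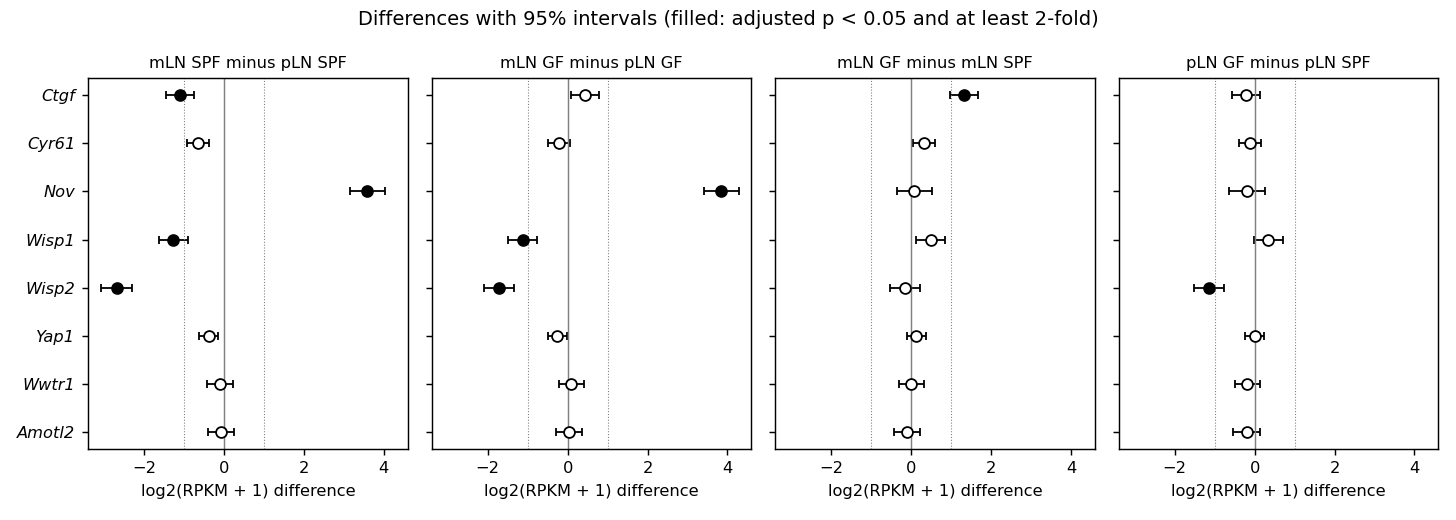
Log2 difference on the log2(RPKM + 1) scale (x axis) with its 95% interval for each of the 8 genes (rows) in 4 comparisons (panels), filled where called and with dotted lines at 2-fold. Nov stands alone on the right in both location panels, and Ctgf and Wisp2 are the filled points of the housing panels.

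Housing was compared next, GF against SPF within each node. In mLN, 1 of the 8 genes was called higher in GF mice (background 0.481%) and none was called lower (0.266%). In pLN, none was called higher (0.420%) and 1 was called lower (0.635%). At an unadjusted limma p under 0.05, 3 were higher and 0 lower in GF mLN, and 0 higher and 1 lower in GF pLN. The share of all tested genes at that unadjusted p was not computed, here or for the lists below. Such counts are therefore descriptive only. Libraries of the 2 housings did not overlap for 3 of the 8 genes in mLN (Ctgf, Nov and Wisp1), against 26.0% of all tested genes, and for 2 of 8 in pLN (Cyr61 and Wisp2), against 27.2%. The median difference of the 8 genes was 0.11 in mLN and -0.19 in pLN, beside -0.01 and 0.06 over all tested genes. The gene called in mLN was Ctgf and the gene called in pLN was Wisp2.

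Ctgf averaged 60.0 ± 3.18 RPKM in GF mLN and 23.5 ± 2.33 RPKM in SPF mLN (SD, n = 3 each), a difference of 1.32 ± 0.17 (limma adjusted p = 0.000287). Each of the 3 GF libraries was above each of the 3 SPF libraries. In pLN it averaged 44.5 ± 6.70 RPKM in GF mice and 52.8 ± 13.0 RPKM in SPF mice, and the housings overlapped. That difference was -0.22 with a 95% interval from -0.58 to 0.13 (limma adjusted p = 0.432). Ordered by mean level, the groups ran from GF mLN over SPF pLN and GF pLN to SPF mLN, of which the middle pair did not differ beyond its spread.

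The interaction tests whether the location difference itself differed between housings. It was called higher for 1 of the 8 genes, Ctgf, at 1.54 ± 0.23 (limma adjusted p = 0.00797), and lower for none, against 0.133% and 0.102% of all tested genes. With the libraries left out in turn the value for Ctgf was 1.40 to 1.75 and remained called. For Wisp2 the interaction was 0.98 ± 0.25 and was not called (limma adjusted p = 0.155). It was called, at 1.19 (limma adjusted p = 0.0255), without SPF pLN replicate 2, the lowest of that group. For the other 6 genes it lay between 0.10 and 0.44 with limma adjusted p of 0.463 to 0.928.

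Some markers of other stromal subsets also differed between housings in mLN, in both directions. Their part in the housing difference of Ctgf was not tested. Acta2, smooth muscle actin, had 34.5, 11.5 and 33.1 RPKM in GF mLN libraries, against 7.50, 4.22 and 5.36 RPKM in SPF mLN libraries (1.92 ± 0.30, limma adjusted p = 0.00148). Tagln, an actin-binding protein of smooth muscle, had 22.2, 10.1 and 17.3 RPKM in GF mLN, against 6.95, 3.44 and 5.38 RPKM in SPF mLN (1.46 ± 0.24, limma adjusted p = 0.00219). Of the 9 perivascular markers, Acta2 was the 1 called between housings in mLN. Of the 10 CD34+ SC markers, 1 was called lower in GF mLN and none higher. Their summed RPKM was 4852 to 5545 in GF mLN, against 5607 to 6053 in SPF mLN. Of 9 tested markers of T zone reticular cells, 2 were called higher in GF mLN and none lower (5 higher and 1 lower at an unadjusted limma p under 0.05). Ccl21a, a chemokine with near-identical gene copies whose value is therefore uncertain, had 585, 338 and 543 RPKM in GF mLN, against 242, 76.6 and 165 RPKM in SPF mLN (1.70 ± 0.31, limma adjusted p = 0.00443). Ccl19, the other ligand of the same receptor, had 49.4, 28.8 and 49.0 RPKM in GF mLN, against 25.1, 9.99 and 15.8 RPKM in SPF mLN (1.32 ± 0.27, limma adjusted p = 0.00908). The summed RPKM of the T zone markers was 788 ± 241 in GF mLN and 532 ± 126 in SPF mLN (SD, n = 3 each), with overlap. GF mLN replicate 2 had the lowest Acta2, perivascular sum (40.2 RPKM) and T zone sum (516 RPKM) of its group and the highest Ctgf, 63.7 RPKM. In SPF mLN, GF pLN and SPF pLN the libraries ranked by Ctgf in the same order as by T zone sum. The orders by Acta2 and by perivascular sum matched that of Ctgf in SPF mLN and GF pLN and were its reverse in SPF pLN. Each order ranks only 3 libraries and was not compared with the orders of other genes.

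**Figure D4:**
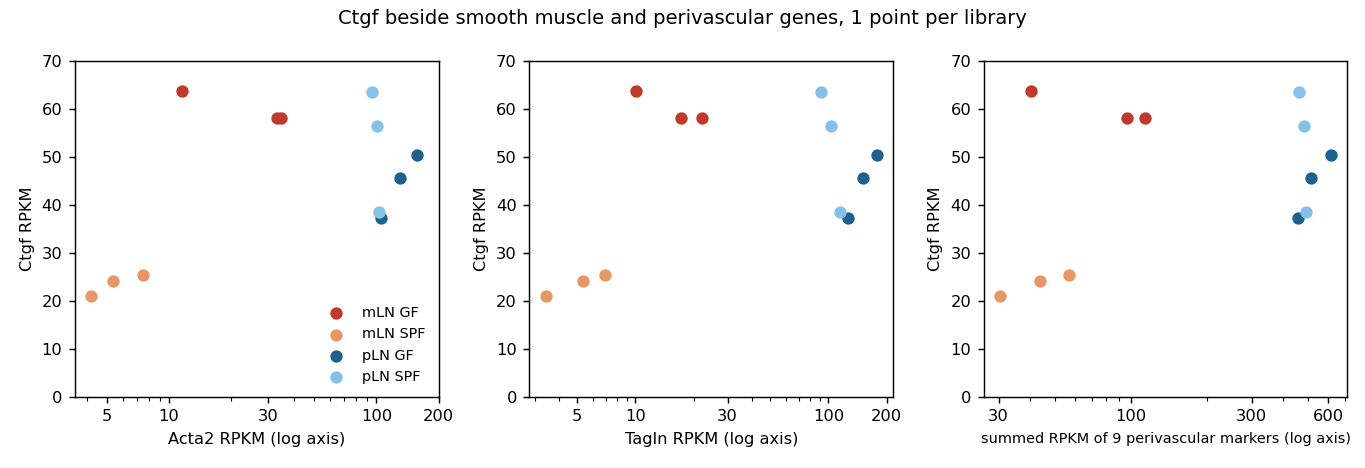
Ctgf RPKM (y axis) against the RPKM of Acta2, of Tagln and the summed RPKM of 9 perivascular markers (x axes, log scale), 1 point per library, colored by group. The 3 GF mLN points lie above the 3 SPF mLN points on the y axis, at 58.1 to 63.7 against 20.9 to 25.5 RPKM of Ctgf, and also to their right for Acta2 and Tagln.

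Wisp2 averaged 17.6 ± 1.46 RPKM in GF pLN and 41.0 ± 11.8 RPKM in SPF pLN (SD, n = 3 each), a difference of -1.14 ± 0.18 (limma adjusted p = 0.00106). The highest GF library, at 18.6 RPKM, was below the lowest SPF library, at 29.6 RPKM. In mLN it averaged 4.71 ± 0.83 RPKM in GF and 5.37 ± 0.66 RPKM in SPF mice, with overlap and a difference of -0.16 (95% interval -0.54 to 0.21). Inmt, a methyltransferase that marks a reticular cell subset of its own in the paper, was the 1 of 9 genes of the T zone list called between housings in pLN. It had 235, 237 and 270 RPKM in GF pLN, against 935, 579 and 741 RPKM in SPF pLN (-1.58 ± 0.26, limma adjusted p = 0.00148). The summed RPKM of the 9 markers was 7373 to 9563 in GF pLN, against 5236 to 7121 in SPF pLN. Most of that sum was Ccl21a, whose value is uncertain, with means of 6392 RPKM in GF pLN and 3982 RPKM in SPF pLN. Inmt, in the same sum, went the other way. The part of these subset markers in the Wisp2 difference was not tested. Without SPF pLN replicate 1, the highest library, the pLN difference was -0.94 and under the 2-fold limit. Its order of levels was SPF pLN, GF pLN, SPF mLN and GF mLN, of which the 2 mLN groups did not differ beyond their spread.

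The other 6 genes did not pass the housing test in either node. Cyr61 averaged 507 ± 67.4 RPKM in GF mLN and 407 ± 61.3 RPKM in SPF mLN, a difference of 0.32 ± 0.13 (limma adjusted p = 0.221). Wisp1 averaged 1.56 ± 0.11 RPKM in GF mLN and 0.826 ± 0.09 RPKM in SPF mLN, without overlap, a difference of 0.49 ± 0.17 (limma adjusted p = 0.136). In pLN, Cyr61 was at 583 to 587 RPKM in GF mice and 593 to 692 RPKM in SPF mice, and its difference was -0.12 with an interval from -0.40 to 0.16. Differences of Yap1, Wwtr1 and Amotl2 between housings lay between -0.20 and 0.13 in the 2 nodes, with limma adjusted p of 0.449 to 0.991.

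The rest of the pathway was read from lists of named genes. Of the TEAD and VGLL genes, the DNA-binding partners of YAP and TAZ and the cofactors that compete for them, 4 of 7 were tested, and Tead3 and Tead4 were not among the genes of the table. Vgll3 was called higher in mLN in both housings, with 23.8, 29.2 and 25.1 RPKM in SPF mLN, against 7.15, 7.89 and 5.89 RPKM in SPF pLN (1.76 ± 0.19, limma adjusted p = 2.02e-06). In GF mice it had 19.3, 25.3 and 21.9 RPKM in mLN, against 1.91, 4.49 and 2.92 RPKM in pLN (2.54 ± 0.19, limma adjusted p = 3.88e-08). Tead2 ran the other way by less than 2-fold, at -0.63 ± 0.14 in SPF mice (limma adjusted p = 0.00309) and -0.72 ± 0.14 in GF mice (limma adjusted p = 0.000988). Tead1 was near the filter of 1 RPKM in most libraries, at 0.517 to 1.55 RPKM, with location differences of -0.03 and -0.28 in SPF and GF mice that did not pass.

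The Hippo kinase cascade, which phosphorylates YAP and TAZ, had 1 called gene. All 15 listed genes were tested, and 1 was called lower in mLN in each housing and none higher, while at an unadjusted limma p under 0.05 there were 6 higher and 1 lower in SPF mice and 2 higher and 3 lower in GF mice. That gene was Map4k3, a kinase that can act on LATS in parallel with the MST kinases, at -1.27 ± 0.18 in SPF mice (limma adjusted p = 3.42e-05) and -1.31 ± 0.18 in GF mice (limma adjusted p = 2.34e-05). The MST kinase genes Stk3 and Stk4 differed between nodes by -0.03 and -0.15 in SPF mice and by 0.03 and -0.37 in GF mice. The LATS kinase genes Lats1 and Lats2 differed by 0.32 and 0.15 in SPF mice and by 0.34 and 0.12 in GF mice. Sav1, the scaffold of the MST kinases, differed by -0.17 and -0.48, and Nf2, which recruits LATS to the membrane, by 0.39 and 0.23, in SPF and GF mice. Between housings limma called none of the 15 in either node, with 0 higher and 1 lower in GF mLN and 2 higher and 0 lower in GF pLN at an unadjusted p under 0.05. Of 16 tested genes that act upstream of the kinases, limma called none higher in mLN in either housing, and 2 lower in SPF and 1 lower in GF mice. At an unadjusted limma p under 0.05, 3 were higher and 4 lower in SPF mice, and 5 higher and 3 lower in GF mice. Ajuba, a LIM protein that inhibits LATS, was called lower in mLN, at -1.63 ± 0.21 in SPF mice (limma adjusted p = 1.4e-05) and -1.36 ± 0.21 in GF mice (limma adjusted p = 8.19e-05). The cadherin gene Dchs1 was called lower in SPF mice (-1.22 ± 0.16, limma adjusted p = 2.4e-05).

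Other genes commonly listed as YAP targets went in both directions between nodes. Of 14 tested, 3 were called higher and 2 lower in mLN in each housing, with a list median of 0.20 in SPF and 0.23 in GF mice. Axl, a receptor tyrosine kinase for Gas6, was higher in mLN, at 788 to 840 RPKM in SPF mLN against 238 to 283 RPKM in SPF pLN, and at 753 to 814 RPKM in GF mLN against 151 to 254 RPKM in GF pLN (1.65 ± 0.15 and 2.03 ± 0.15). Myof, a ferlin of the plasma membrane, was also higher (1.10 and 1.16), and the kinase gene Nuak2 was called in SPF mice (1.14). Igfbp3, which binds insulin-like growth factors, was lower in mLN, at 54.3 to 94.9 RPKM in SPF mLN against 761 to 937 RPKM in SPF pLN (-3.51 ± 0.29), and by -3.92 ± 0.29 in GF mice. Crim1 was lower too (-1.29 and -1.28). Limma adjusted p of these calls were at most 7.4e-06. F3, described next, was the third gene called higher in GF mice (1.29 ± 0.13, limma adjusted p = 8.6e-07).

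**Figure D5:**
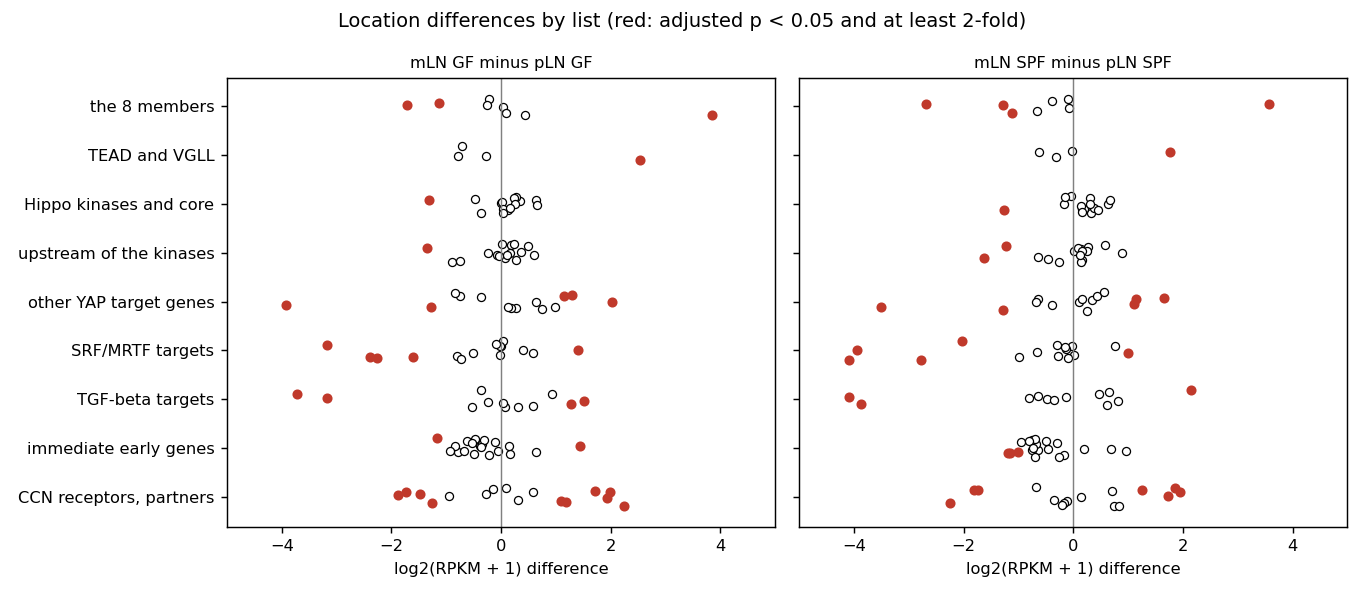
Log2 location difference (x axis, log2(RPKM + 1) scale) of each tested gene of 9 lists (rows) in GF mice (left) and SPF mice (right), 1 point per gene, red where called. The Hippo kinase row holds 1 red point in each panel, whereas the row of CCN receptors and partners holds 10 in GF and 7 in SPF mice, on both sides of 0.

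Between housings, the 1 called gene of the YAP target list was F3, tissue factor, which starts coagulation. It had 68.2, 78.3 and 69.8 RPKM in GF mLN, against 219, 276 and 227 RPKM in SPF mLN (-1.72 ± 0.13, limma adjusted p = 1.59e-06). In pLN it had 30.2, 27.2 and 29.4 RPKM in GF mice, against 205, 157 and 176 RPKM in SPF mice (-2.58 ± 0.13, limma adjusted p = 5.9e-09). F3 was lower in GF mLN, where Ctgf was higher.

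Ctgf and Cyr61 are also induced through SRF and its MRTF cofactors and, for Ctgf, through TGF-β. Of 15 tested SRF and MRTF targets, 4 were called lower in mLN and 1 higher in each housing. Tagln differed by -4.09 ± 0.24 in SPF mice (limma adjusted p = 3.12e-09) and -3.17 ± 0.24 in GF mice (limma adjusted p = 5.24e-08). Acta2, Actn1 and Myl9 were lower too, and Zyx, a focal adhesion protein, was higher (1.01 in SPF mice, and 1.40 in GF mice). The SPF value of Zyx ranged from 0.91 to 1.10 over the alternatives, and it was under 2-fold with median-of-ratios scaling and without SPF mLN replicate 1, SPF mLN replicate 3 or SPF pLN replicate 2. Between housings, 2 of the 15 were called higher in GF mLN, Acta2 and Tagln, and none in pLN. Of 12 TGF-β genes, Tgfbi, a matrix protein named for its induction, had lower values in mLN, with differences of -4.09 ± 0.20 in SPF mice (limma adjusted p = 4.7e-10) and -3.73 ± 0.20 in GF mice (limma adjusted p = 1.61e-09), as was Ltbp2 (-3.88 and -3.18). Postn, the matricellular protein periostin, was higher in mLN (2.14 in SPF and 1.52 in GF mice), and Tgfbr1 was called higher in GF mice (1.28). Between housings limma called none of the 12, with 3 higher in GF mLN, 1 higher in GF pLN and 2 lower in GF pLN at an unadjusted p under 0.05.

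Immediate early genes, which can also be induced while tissue is digested and sorted, were compared because Cyr61 belongs to that class. Of 20 tested, 3 were called lower in mLN in SPF mice, Ier3 (-1.19), Egr2 (-1.16) and Btg2 (-1.0), and none higher. At an unadjusted limma p under 0.05, 15 were lower and 2 higher. Egr2 was at -0.87 without SPF pLN replicate 2, and Btg2 lost its call without that library, SPF mLN replicate 1 or SPF mLN replicate 3, with values from -1.17 to -0.73 over all alternatives. In GF mice Ier3 was called lower (-1.18) and Klf2 higher (1.44). The list median was -0.68 in SPF mice, where Cyr61 differed by -0.65, and -0.38 in GF mice, where Cyr61 differed by -0.22. Between housings limma called none in either node, and 2 were lower in GF mLN and 7 lower in GF pLN at an unadjusted p under 0.05. The part of these genes in the Cyr61 values was not tested.

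Receptors and partners of CCN proteins differed by location in both directions for part of the list. Of 16 tested, 4 were called higher and 3 lower in mLN in SPF mice, and 6 higher and 4 lower in GF mice, although the list median was 0.01 in SPF and 0.19 in GF mice. The integrin gene Itga5, a subunit of the fibronectin receptor, was higher in mLN, with 62.6, 54.8 and 56.3 RPKM in SPF mLN, against 16.0, 14.1 and 15.9 RPKM in SPF pLN (1.85 ± 0.14, limma adjusted p = 4.36e-08). In GF mice it had 87.2, 124 and 98.6 RPKM in mLN, against 17.9, 23.9 and 21.4 RPKM in pLN (2.23 ± 0.14, limma adjusted p = 7.3e-09). Itgb3, the β-subunit of the vitronectin receptor that binds Cyr61 and Ctgf, was higher as well (1.73 in SPF mice and 1.98 in GF mice), as were Fn1, fibronectin (1.95 and 1.93), and Hspg2, perlecan (1.26 and 1.72). Lower in mLN were, among others, Itga6, a laminin receptor subunit (-1.73 and -1.74), and the ligand Bmp4, which Ctgf sequesters (-1.81 and -1.27). Notch1, a receptor that Nov can bind, was called lower in mLN in GF mice (-1.47 ± 0.15, limma adjusted p = 1.07e-06) and its interaction was -1.12 ± 0.21 (limma adjusted p = 0.0312). It had 2.44, 1.43 and 2.13 RPKM in GF mLN and 2.42, 2.73 and 3.11 RPKM in SPF mLN. In pLN it had 8.91, 6.60 and 6.42 RPKM in GF mice, against 3.45, 3.68 and 4.21 RPKM in SPF mice. The interaction of Notch1 was not called under 12 of its 17 alternatives, 10 of which left out 1 library.

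For each of the 8 genes, the 3 tested genes with the most similar pattern were taken by Pearson's r of log2(RPKM + 1) over the 12 libraries. The libraries share groups, so r mostly follows the group means, and it is given as a description. For Nov these were Adamts19, a metalloproteinase (1.0), Vcan, the proteoglycan versican (0.99), and Sec14l1 (0.99). For Wisp1 they were Pfkl (0.98), Aim1 (0.98) and Stc2 (0.97), and for Wisp2 Abcg1, a sterol exporter (0.99), Ctsa (0.98) and Serping1, the C1 inhibitor (0.98). For Cyr61 they were Trib1, a pseudokinase (0.95), the member Yap1 (0.91) and Tcf7, a WNT pathway factor (0.90). For Yap1, Trib1 again came first (0.96), followed by Ivns1abp (0.93) and Foxp2 (0.92). Ctgf had no match above 0.85, and those near it included Dkk3, a secreted glycoprotein, at 0.85 and Wbscr16 at 0.83. Wwtr1 was nearest to Ifnar1 (0.93), Eif5a2 (0.93) and Klhl24 (0.92), and Amotl2 to Trim8 (0.83), Noc4l (0.80) and Fbxo7 (0.79). In deviations from the group means, where location and housing are taken out, Ctgf was nearest to Pex16 (0.98), Syngr2 (0.97) and Man1c1 (0.96), and Cyr61 to Psat1 (0.93), Tmem5 (0.93) and Thumpd1 (0.90). The r between Ctgf and Cyr61 was 0.56 over the libraries and -0.36 in these deviations. The ratio of Cyr61 to Ctgf was 7.59 to 9.05 in GF mLN, 14.7 to 22.8 in SPF mLN, 11.6 to 15.8 in GF pLN and 9.83 to 18.0 in SPF pLN.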

How the data were processed

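Libraries were made from sorted SCs with the SMART-Seq v4 and Nextera XT kits, which keep no strand, and read as 50 bp single reads. The submitters' processing notes name TopHat2 1.2.0, HTSeq 0.12.4 and the build GRCm38 (mm10). The deposited RPKM values were computed by the authors from raw counts. The 8 columns with the authors' fold changes and adjusted p of 4 pairwise DESeq2 comparisons were not used. The rule by which the 10253 genes were kept in the table was not stated in the sources used here. In 18 the symbol had become a date. The labels' source field names pLN as a mesenteric node that drains the skin, and the sample titles were followed.

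Genes with at least 1 RPKM in at least 3 libraries were tested, 9764 in all, which left out 489. All 8 members passed. limma 3.58.1 (R 4.3.3) was fitted on log2(RPKM + 1) with 12 libraries in 1 model of 4 group means (8 residual degrees of freedom, 15.1 after moderation), with no covariate, and p-values were adjusted over all tested genes. Because the values are RPKM, no count model was fitted. Whole reads were recovered for 10186 genes (99.3%, relative tolerance 1e-12) and used only for depth and for the read counts given for Wisp1. Deviations from the group means of same-numbered mLN and pLN libraries of SPF mice correlated at r of 0.263, 0.456 and 0.182 over genes. Among unlike numbers there, mLN replicate 1 with pLN replicate 3 reached 0.303 and mLN replicate 3 with pLN replicate 1 reached 0.209. The unlike pairs that hold replicate 2 of either node gave -0.385 to -0.276. These values do not settle whether the numbers mark pairs. Same-numbered libraries of GF mice gave 0.228, 0.217 and 0.0792, against -0.241 to 0.0291 for unlike numbers. The main fit holds no pair term. The replicate block, an alternative, took same-numbered libraries as pairs, within each housing for location and the interaction and within each node for housing. The script was tested on simulated data. Members and lists were chosen with earlier results of these data known. Outside the 8 members, listed genes are named where called, up to 4 with the largest change per list and direction, beside the TEAD, LATS and MST genes, Sav1 and Nf2. Alternatives were a pseudocount of 0.1, no filter, median-of-ratios scaling, limma with trend and robust, fits of the 2 groups compared, a replicate block, and leaving out each library. Promoter letters and positions are from RefSeq (GRCm38.p6), in which all 8 genes matched by symbol or synonym and 4 had a promoter window. A few genes that these rules would name are not reported here. Python 3.11.15 was used for the other steps.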

Additional observations from a re-analysis of the deposited data

Results flagged for a closer look

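The location difference of Ctgf differed between housings by the interaction test, at 1.54 ± 0.23 on the log2 scale (limma adjusted p = 0.00797). Ctgf had 58.1 to 63.7 RPKM in mLN and 37.2 to 50.4 RPKM in pLN libraries of GF mice, against 20.9 to 25.5 RPKM in mLN and 38.5 to 63.7 RPKM in pLN libraries of SPF mice. All 3 GF mLN libraries were above all 3 SPF mLN libraries, and limma adjusted p ranged from 0.00047 to 0.033 over its 17 alternatives. Over all tested genes 23 passed this test, 13 higher and 10 lower.

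The location difference of Notch1, a receptor on the list of CCN partners, also differed between housings, at -1.12 ± 0.21 (limma adjusted p = 0.0312). It was no longer called under 12 of 17 alternatives, over which the value ranged from -1.39 to -0.98.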

How the results depend on the processing

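Of the location and housing differences of the 8 genes, Nov, Wisp2, Wisp1 and Ctgf kept their direction in each comparison in which they were called. With a pseudocount of 0.1 RPKM the housing calls over all genes were 147 in mLN, against 73, and 172 in pLN, against 103. With the replicate block the interaction calls were 43, against 23, and no other count moved by over 1.5 times and no call of the 8 genes changed. Numbers do not pair the housings, where same-numbered libraries correlated at -0.333 to 0.0225. Under median-of-ratios scaling Yap1 in pLN was -0.071, against 0.0054, and neither passed the test. Higher calls were then 28.2% in pLN, against 39.8%, and 71.4% of interaction calls, against 56.5%, and the median of all genes in SPF location moved to 0.011, against 0.095. The cause was not tested. With each library left out in turn, interaction calls were 13 (without GF mLN replicate 3) to 38 (without GF pLN replicate 2), and 15 without SPF mLN replicate 3. Of the 8 genes 1 to 2 were called in the interaction, and 0 to 1 for housing in pLN. Uncalled differences near 0 changed sign in these fits. For SPF location the ranges were -0.18 to 0.0073 (Amotl2) and -0.22 to 0.066 (Wwtr1), and for GF location -0.12 to 0.10 (Amotl2). For housing in mLN they were -0.25 to 0.001 (Amotl2) and -0.048 to 0.11 (Wwtr1), and in pLN -0.38 to 0.11 (Nov) and -0.043 to 0.097 (Yap1). For the interaction they were -0.049 to 0.21 (Amotl2), -0.023 to 0.46 (Nov) and -0.0095 to 0.38 (Wisp1). Called values that fell under 2-fold ranged from -1.32 to -0.96 (Ctgf, SPF location), -1.28 to -0.90 (Wisp1, GF location) and -1.35 to -0.94 (Wisp2, housing in pLN), and the interaction of Wisp2 from 0.77 to 1.19. Of 61 called values of the other lists, 56 were called under every alternative run. Besides Notch1, the exceptions were Zyx, Btg2 and Egr2 for SPF location and, chosen after its values were seen, Lrp1 for GF location, and none reversed. Depth limits Wisp1, which had 36 to 53 reads in SPF mLN libraries.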
